A study of Caenorhabditis elegans with 66 samples.

Results

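The genes described here are the relatives of Hedgehog and of Patched in Caenorhabditis elegans. They were taken by name alone: every gene called wrt-, grd-, grl-, hog-, qua- or ptr- and a number. Of the 46740 genes in the count tables, 83 carried such a name, among them 10 wrt, 16 grd, 31 grl and 24 ptr genes and the single genes hog-1 and qua-1. Whole animals were sequenced in both experiments, with 3 libraries per genotype. In the first, polyA-selected RNA of rpb-9 (mj261) mutants was compared with that of wild type. RPB-9 is a small subunit of RNA polymerase II, and mj261 is 1 mutagen-induced allele with a premature stop codon that was isolated in a screen for animals unable to silence a germline reporter of piRNA activity. In the second, RNA depleted of ribosomal RNA with Ribo-Zero was compared between mutants of PRG-1, the Piwi protein that binds piRNAs, with the allele n4357, and a separate set of wild-type libraries. The wild type of the study carries that germline reporter (mjIs144), and the labels do not say whether the prg-1 strain does. The study reports the transcript of the reporter as upregulated in its comparison of rpb-9 and prg-1 mutants. The columns of both tables bear strain names, and genotypes were assigned by elimination, with the strain that both tables have in common as wild type. The stage of the animals is not given for these RNA libraries in the sources used here, and neither is whether replicates were separate cultures, so p-values measure the spread between these libraries only.

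Nematodes have no Hedgehog in the strict sense, but they have secreted proteins built from the same parts. Warthog (WRT), Groundhog (GRD), Quahog (QUA) and Hog (HOG) proteins include members with the Hog domain, which in other animals cuts Hedgehog and attaches cholesterol to it, while ground-like (GRL) proteins carry a cysteine-rich domain without it. The patched-related (PTR) proteins span the membrane and contain a sterol-sensing domain, as does Patched, the receptor of Hedgehog in flies and vertebrates. Smoothened, which relays the signal in those animals, is missing from the worm. Many of these genes are expressed in the epidermis and in other cells that line the outside of the animal, in pulses tied to the moulting cycle, and loss of several of them blocks the shedding of the old cuticle.

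The polyA libraries held between 24089119 and 36206855 counts on genes and the Ribo-Zero libraries between 6099620 and 9881132, of which ribosomal RNA genes took between 34.2% and 48.4%. Ribosomal RNA took 7.93% in rpb-9 replicate 3 and at most 0.69% in the other polyA libraries. The mutated genes themselves were checked first. Transcripts of prg-1 were at 60.0, 54.0 and 59.8 CPM (counts relative to library size, scaled by TMM factors) in prg-1 mutants and at 161, 163 and 176 CPM in wild type. Transcripts of rpb-9 were at 41.7, 26.3 and 24.9 CPM in rpb-9 mutants and at 37.3, 44.7 and 47.8 CPM in wild type, so that replicate 1 of the mutant lay within the wild-type range, and a premature stop need not lower the transcript. The same replicate 1 was also the rpb-9 library with the lowest summed level of the genes described here. In the Ribo-Zero set, replicate 3 of both genotypes stood apart: adult cuticle collagens (col-7, col-19, col-62, bli-1 and bli-2) summed to 1767, 1572 and 366 CPM in prg-1 mutants and to 1002, 1184 and 478 CPM in wild type. For the sum of these collagens the order of replicates 1 and 2 against 3 was therefore the same in mutant and wild type. That sum was almost all col-19, at 1745, 1536 and 362 CPM in prg-1 mutants and 997, 1177 and 475 CPM in wild type. The sparse col-7 and col-62 had the same order, while bli-1 did not in wild type, at 1.40, 1.82 and 1.54 CPM. Moulting genes did not all share that order. noah-1 ran opposite ways, at 8.16, 8.28 and 32.9 CPM in prg-1 mutants and 20.4, 15.5 and 6.15 CPM in wild type. mlt-7 kept the order, at 21.5, 20.2 and 14.3 CPM in prg-1 mutants and 11.2, 13.1 and 8.38 CPM in wild type.

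Most of these genes were sparse in whole animals. In polyA RNA, 30 of the 83 never reached 10 counts in any library, and in Ribo-Zero RNA likewise 30 stayed below that, with grl-11 and grl-19 at 0 in all 6 libraries. Levels of different genes were compared as TPM, which relate counts to exon length and then to the library. The most abundant was ptr-2, a patched-related gene reported to act with epidermal WRT-10 in reproductive ageing, at 116 TPM in rpb-9 mutants and 193 TPM in wild type. It was followed by the groundhog genes grd-3, with 80.9 TPM in rpb-9 mutants and 40.1 TPM in wild type, and grd-5, with 73 TPM in rpb-9 mutants and 43.4 TPM in wild type. The next were grl-10, ptr-24, ptr-21, grl-4, wrt-5, grd-13 and grd-10, whose wild-type means in polyA RNA lay between 17.6 TPM for grl-10 and 6.35 TPM for grd-10. In the Ribo-Zero libraries the highest were grd-3, at 126 TPM in prg-1 mutants and 63.2 TPM in wild type, grd-5, at 77.7 TPM in prg-1 mutants and 42.8 TPM in wild type, and ptr-2, at 68.4 TPM in prg-1 mutants and 65.2 TPM in wild type. qua-1, a quahog gene needed for moulting, was at 0.64 TPM in rpb-9 mutants and 0.48 TPM in wild-type polyA RNA.

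Within a family, neighbours on the chromosome were common. Chromosome V held 32 of the 83 genes, or 38.6%, and 25% of all protein-coding genes, and 19 of the 31 grl genes lay there. The runs of genes of 1 family within 20000 bases of each other were grd-13, grd-3 and grd-10 on IV, grd-14 and grd-4 on X, grl-28, grl-29, grl-30, grl-31 and grl-27 on V, grl-9 and grl-8 on V, wrt-7 and wrt-8 on V, and wrt-1 with wrt-10 on II. Exons of 30 of the 83 genes overlapped those of another gene, mostly on the other strand, and no strand option is named for the counting. For the members named below the overlap was small, such as 30 of 2606 exon bases for ptr-15, except for wrt-3, where a pseudogene on the same strand covered 1002 of 2438 exon bases. Reads shared between near-identical loci, seen as fractional counts, occurred only in grl-26 and grl-27, which were tested in neither experiment.

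In rpb-9 mutants 5 of these genes passed both thresholds for a call, on the adjusted p and on the fold. The patched-related genes ptr-15 and ptr-20 and the groundhog gene grd-1 rose, and the ground-like gene grl-21 and the warthog gene wrt-1 fell, in edgeR's quasi-likelihood test over 14275 genes with p-values adjusted after Benjamini-Hochberg (adjusted p under 0.01, log2 fold change over 1 in size). These were 5 of the 50 members with enough counts to be tested, or 10%, while 15.3% of all tested genes were called. By direction, 3 members rose, against a background of 13.8%, and 2 fell, against a background of 1.49%. The other 33 members had fewer than 10 counts in too many libraries. In RNA of whole animals, fewer cells of a type and less RNA per cell cannot be told apart.

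The largest change upward was that of ptr-15 (chrV:6966396-6970000, minus strand, WBcel235), which had 53, 117 and 105 counts in rpb-9 mutants, against 10, 16 and 15 counts in wild type. The lowest mutant library was above every wild-type library, and the log2 fold change was 2.33 ± 0.35 (SE, n = 3 each; edgeR adjusted p = 0.0014). Its overlapping partner on the other strand, the touch neuron matrix gene mec-1, was at 1.32, 2.29 and 2.71 CPM in rpb-9 mutants and at 2.63, 1.87 and 1.37 CPM in wild type (0.12 ± 0.33, edgeR adjusted p = 0.78). The promoter of ptr-15 is shown because it carried the nuclear receptor motif searched for below in 2 copies.
ptr-15, chrV:6970001-6970250, minus strand, capitals mark AGGTCA: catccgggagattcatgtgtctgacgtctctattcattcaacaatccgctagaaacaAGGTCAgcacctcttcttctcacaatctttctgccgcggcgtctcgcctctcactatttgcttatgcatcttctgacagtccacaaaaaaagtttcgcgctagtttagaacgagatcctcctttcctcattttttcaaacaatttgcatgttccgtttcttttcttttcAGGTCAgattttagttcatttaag

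The second patched-related gene, ptr-20 (chrII:15158180-15163614), was at 5.37, 7.40 and 6.91 CPM in rpb-9 mutants and at 3.44, 2.23 and 2.28 CPM in wild type. The genotypes did not overlap, with a log2 fold change of 1.32 ± 0.23 (edgeR adjusted p = 0.0026). It missed the call without wild type replicate 2 or without wild type replicate 3 (log2 fold change 1.23 in both, adjusted p = 0.0121 and 0.0122). The groundhog gene grd-1 (chrX:11109440-11115887) had 24, 43 and 49 counts in rpb-9 mutants and 8, 9 and 6 counts in wild type. Since no wild-type library reached the count minimum, grd-1 entered the test only through the mutant, and the filter favoured a difference. Its log2 fold change was 1.90 ± 0.36 (edgeR adjusted p = 0.0038), and without wild type replicate 1, 2 or 3 its adjusted p was 0.0102, 0.0137 and 0.0167.

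The largest change downward was that of grl-21 (chrIV:10737474-10738191), a ground-like gene that has been linked to lipid storage. It had 3, 5 and 10 counts in rpb-9 mutants, against 27, 30 and 19 counts in wild type. All mutant libraries lay below all wild-type libraries, at a log2 fold change of -2.48 ± 0.41 (edgeR adjusted p = 0.0020), and the adjusted p was 0.0105 without rpb-9 replicate 2. The warthog gene wrt-1 (chrII:7530996-7533246) had 26, 27 and 22 counts in rpb-9 mutants and 51, 56 and 39 counts in wild type. Again the genotypes did not overlap, and the log2 fold change was -1.38 ± 0.26 (edgeR adjusted p = 0.0035). The call of wrt-1 was lost without wild type replicate 1 (adjusted p = 0.014), wild type replicate 2 (0.017), rpb-9 replicate 2 (0.0121) or rpb-9 replicate 3 (0.0242), with log2 fold changes between -1.18 and -1.42. Its neighbour wrt-10, which points towards it from the other side, was at 2.22, 2.63 and 1.59 CPM in rpb-9 mutants and at 1.95, 1.98 and 1.44 CPM in wild type, and did not pass the test (0.26 ± 0.25, edgeR adjusted p = 0.41). The glial gene grl-18 lay just outside the threshold, with 3, 9 and 9 counts in rpb-9 mutants and 27, 21 and 13 counts in wild type (-1.95 ± 0.47, edgeR adjusted p = 0.0101). No mutant library of grl-18 reached 10 counts, so it entered the test only through wild type, where it had to be the higher. It was called with DESeq2, with RLE size factors, without a filter on low counts or with a lighter one, and without ribosomal RNA genes, and not with library size alone or the replicate block.

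The promoters of both genes that fell are given for comparison with that of ptr-15, as the 250 bases before the annotated gene start, 5′ to 3′ on the strand of the gene, from the RefSeq sequence of WBcel235. Many worm transcripts are trans-spliced, so that the annotated start can lie downstream of the first transcribed base.
wrt-1, chrII:7530746-7530995, plus strand: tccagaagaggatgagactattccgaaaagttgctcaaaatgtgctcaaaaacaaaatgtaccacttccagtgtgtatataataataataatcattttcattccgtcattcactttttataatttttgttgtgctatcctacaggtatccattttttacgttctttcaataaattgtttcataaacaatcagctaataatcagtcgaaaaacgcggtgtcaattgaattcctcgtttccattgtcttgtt
grl-21, chrIV:10737224-10737473, plus strand: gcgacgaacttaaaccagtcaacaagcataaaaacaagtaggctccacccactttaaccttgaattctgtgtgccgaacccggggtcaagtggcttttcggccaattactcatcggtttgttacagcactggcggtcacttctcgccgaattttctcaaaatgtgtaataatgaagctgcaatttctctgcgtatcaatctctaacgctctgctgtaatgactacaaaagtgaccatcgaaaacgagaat
Each window was searched on both strands for AGGTCA, the core motif bound by nuclear receptors such as NHR-23, a driver of the moulting cycle, and for TGATAA, a site of GATA factors such as the epidermal ELT-1 and ELT-3. Neither was found in these 2 windows. The other genes that rose in rpb-9 mutants lacked the nuclear receptor motif too, and their windows are not printed. ptr-20 had neither motif, and grd-1 had the site of GATA factors alone. The printed windows were therefore chosen, and do not show that the nuclear receptor motif goes with a rise. AGGTCA was present before 11 of the 83 genes (13.3%) and before 1419 of 19973 protein-coding genes (7.11%), and TGATAA before 13 of the 83 (15.7%) and before 5347 of all (26.8%). Besides ptr-15, the genes with AGGTCA were grd-2, grd-3, grl-6, grl-24, grl-26, ptr-3, ptr-9, ptr-10, wrt-2 and wrt-3, and of these 11 genes 6 were tested in polyA RNA and 1, ptr-15, was called, against 15.3% of all tested genes. In the 3 windows printed, no match overlapped another.

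**Figure D1:**
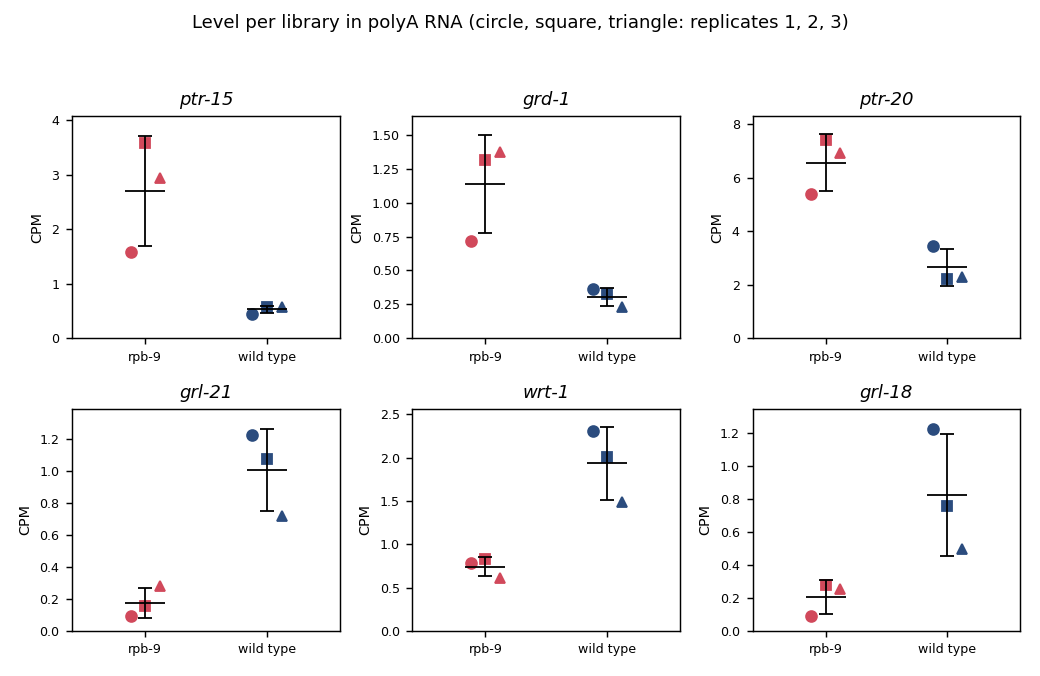
Levels (CPM scaled by TMM factors) of the 5 called genes and of grl-18 in each polyA library, rpb-9 mutants left and wild type right, with mean and SD (n = 3). For ptr-15, grd-1 and ptr-20 every mutant library lies above every wild-type library, and for grl-21, wrt-1 and grl-18 every mutant library lies below.

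The 3 most abundant members, ptr-2, grd-3 and grd-5, passed the threshold on p but not that on the fold. ptr-2 was at 203, 246 and 247 CPM in rpb-9 mutants and at 444, 435 and 415 CPM in wild type. The genotypes were far apart, at a log2 fold change of -0.90 ± 0.10 (edgeR adjusted p = 0.00046). ptr-2 held between 43.0% and 47.6% of the summed CPM of all 83 genes in rpb-9 mutants and between 66.4% and 68.2% in wild type. Oocyte transcripts moved with it: all 18 genes of a list of oocyte and eggshell genes had a log2 fold change below 0, with a median of -0.79, and they summed to between 10300 and 12442 CPM in rpb-9 mutants and to between 20032 and 21009 CPM in wild type. The part of these in the level of ptr-2 was not tested. The groundhog genes went the other way. grd-3 was at 34.9, 40.5 and 40.6 CPM in rpb-9 mutants and at 21, 21.8 and 21.4 CPM in wild type (0.85 ± 0.11, edgeR adjusted p = 0.00078). grd-5 was at 24.0, 25.9 and 29.1 CPM in rpb-9 mutants and at 16.7, 17.9 and 17.9 CPM in wild type (0.59 ± 0.12, edgeR adjusted p = 0.0056). Neither overlapped between genotypes, and grd-3 was called when libraries were scaled by their size alone (1.11, adjusted p = 0.000153).

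Taken by family, all 7 tested grd genes had a log2 fold change above 0, with a median of 0.59, and so had 16 of the 22 tested ptr genes (median 0.34) and 4 of the 7 tested wrt genes (median 0.18). Of the 12 tested grl genes, 5 were above 0 (median -0.18). These counts leave out the sparse genes, and grd-1 was tested only through its mutant libraries: of all 16 grd genes whatever their level, 10 had the higher mean in rpb-9 mutants and 6 in wild type. Over the 50 tested members the median was 0.27, beside 0.14 over all tested genes. At an unadjusted p under 0.05 there were 18 members, against a background of 58.2%. Without a fold threshold, 15 members (10 higher and 5 lower in the mutant) were under an adjusted p of 0.05, against a background of 50.8%. The libraries did not overlap between genotypes for 17 of the 50 tested members, against 60.7% of all tested genes. Among these 17 were grd-1, grl-2 and hog-1, which passed the filter only through the mutant, and grl-18, which passed only through wild type. The filter favoured their separation. Counting all 83 genes whatever their level, 49 had the higher mean in rpb-9 mutants and 34 in wild type, where 59.8% of the protein-coding genes with a count had the higher mean in the mutant. Among the abundant genes that did not pass, ptr-24, at 34.9, 71.6 and 59.8 CPM in rpb-9 mutants and 28.1, 35.6 and 39.1 CPM in wild type, had a mutant replicate 1 within the wild-type range. The same was seen for ptr-13, at 7.75, 16.6 and 16 CPM in rpb-9 mutants and 10.1, 7.90 and 7.45 CPM in wild type. For ptr-21, at 28.3, 47.2 and 49.3 CPM in rpb-9 mutants and 34, 35.7 and 35 CPM in wild type, mutant replicate 1 was below every wild-type library. For those 3 genes, mutant replicates 2 and 3 were above every wild-type library. Set against the wild-type library of the same number, a match that the data do not bear out as a pairing, the median log2 ratio of the 50 members was -0.06 for rpb-9 replicate 1, 0.32 for replicate 2 and 0.44 for replicate 3.

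**Figure D2:**
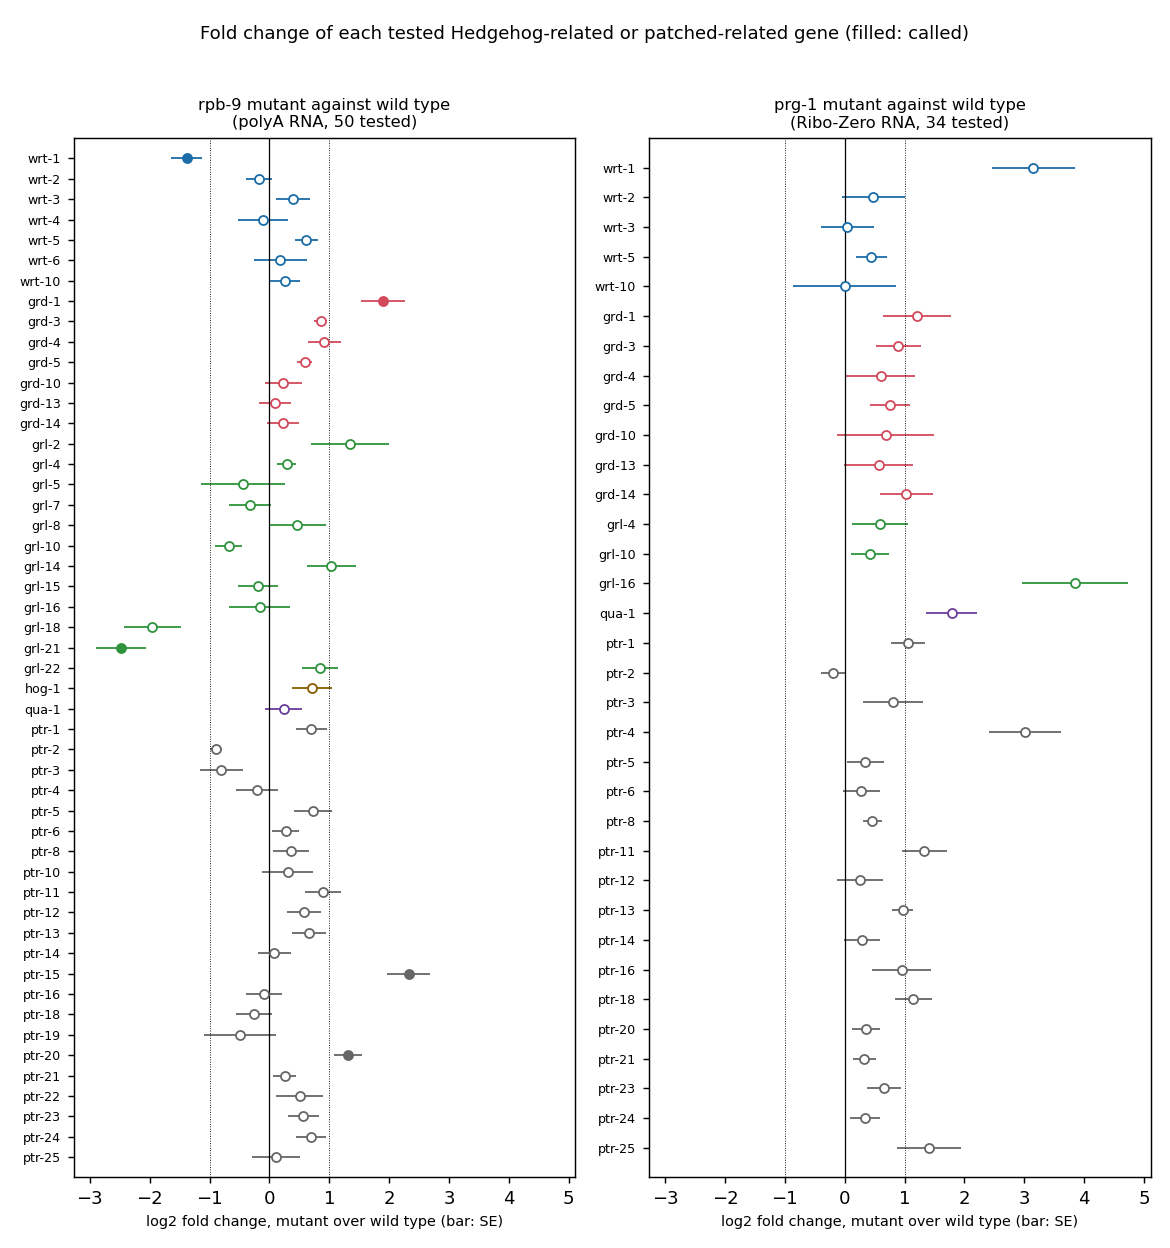
Log2 fold change (mutant over wild type, bar: SE) of each tested member, by family, in rpb-9 mutants (left, 50 genes) and prg-1 mutants (right, 34 genes). Filled points are called (edgeR, adjusted p under 0.01 and beyond the dotted lines at 1 and -1): 5 on the left and none on the right, where 32 of 34 points are above 0.

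In prg-1 mutants no member was called. With 14 of 11794 genes past both thresholds in the whole table (0.119%), edgeR called 0 of the 34 tested members. At an unadjusted p under 0.05 there were 11 members, all of them higher in the mutant, against a background of 18.9% in either direction and 10.7% higher. Of these, ptr-4, wrt-1 and qua-1 passed the count filter only through the mutant, so the filter favoured their place in this count. At an adjusted p under 0.05 there was still no member, against 1.16% of all genes. DESeq2 called ptr-4 and grl-16, and 335 genes in all (2.84%). The other 49 members had too few counts for the test.

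The 3 largest log2 fold changes were those of grl-16, wrt-1 and ptr-4. The ground-like gene grl-16 had 86, 159 and 15 counts in prg-1 mutants, against 4, 12 and 2 counts in wild type. Every mutant library exceeded every wild-type library, although the third library of each genotype was much the lowest (3.84 ± 0.88, edgeR adjusted p = 0.094). wrt-1, which fell in rpb-9 mutants, had 10, 23 and 14 counts in prg-1 mutants and 2, 3 and 0 counts in wild type (3.15 ± 0.70, edgeR adjusted p = 0.085). Since all its wild-type libraries were at or below 3 counts, its mean in prg-1 mutants was set against a floor of 3 counts per library, and was 5.09-fold higher. With 3 counts observed in wild type replicate 2, that is not a bound on the fold. ptr-4, which encodes a patched-related protein needed for moulting and for the matrix that precedes the new cuticle, had 17, 30 and 26 counts in prg-1 mutants and 1, 7 and 1 counts in wild type (3.01 ± 0.60, edgeR adjusted p = 0.066). Both wrt-1 and ptr-4 entered the test only through the mutant libraries. The single quahog gene, qua-1, is required for moulting, and had 20, 28 and 12 counts in prg-1 mutants and 4, 7 and 6 counts in wild type (1.79 ± 0.43, edgeR adjusted p = 0.10). It too passed the filter only through the mutant.

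Same-numbered libraries of the Ribo-Zero set varied together, and with the replicate number as a block 4 members were under an adjusted p of 0.05, against 4.84% of all genes: grl-16 (edgeR adjusted p = 0.0106), ptr-4 (0.0318), ptr-13 (0.032) and wrt-1 (0.0489). None was under 0.01. ptr-13 was the most even of these, at 23.6, 21.1 and 15.8 CPM in prg-1 mutants and 10.4, 10.1 and 10.3 CPM in wild type (0.97 ± 0.18 and edgeR adjusted p = 0.056 without the block). No wild-type library came near the lowest mutant library.

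The abundant groundhog genes were further apart between genotypes in replicates 1 and 2 than in replicate 3. grd-3 was at 82.9, 71.4 and 27.9 CPM in prg-1 mutants and at 37.2, 35.7 and 24.7 CPM in wild type (0.90 ± 0.38, edgeR adjusted p = 0.26). grd-5 was at 39.6, 30.0 and 14.4 CPM in prg-1 mutants and at 16.4, 17.9 and 15.4 CPM in wild type (0.76 ± 0.33, edgeR adjusted p = 0.27). grd-10 was at 11.2, 9.80 and 0.75 CPM in prg-1 mutants and at 5.61, 5.85 and 1.96 CPM in wild type. In all 3 of these genes replicate 3 of the mutant fell within or below the wild-type range. Without prg-1 replicate 3, grd-3 (1.26, edgeR adjusted p = 0.0037), grd-5 (1.08, 0.0039), ptr-13 (1.14, 0.0021) and grl-16 (4.33, 0.0012) were called, together with 547 genes in the whole table. In both genotypes the low replicate 3 of grd-3 and grd-10 ran beside a low replicate 3 of the summed adult cuticle collagens, almost all col-19. The part of these collagens in the values was not tested.

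**Figure D3:**
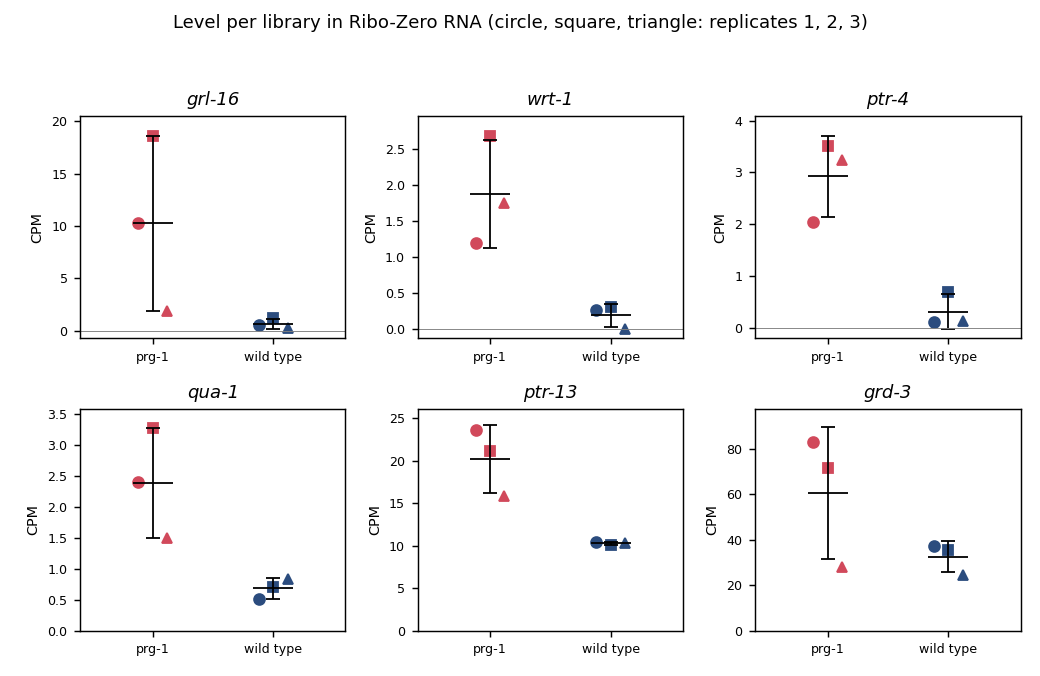
Levels (CPM scaled by TMM factors) of 6 members in each Ribo-Zero library, prg-1 mutants left and wild type right, with mean and SD (n = 3). The genotypes do not overlap for grl-16, wrt-1, ptr-4, qua-1 and ptr-13, and for grd-3 replicate 3 of the mutant (triangle) falls to 27.9 CPM, inside the wild-type range.

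At the low end were ptr-2, at 112, 99.0 and 158 CPM in prg-1 mutants and 128, 129 and 164 CPM in wild type (-0.19 ± 0.21, edgeR adjusted p = 0.62), wrt-10 and wrt-3. The warthog gene wrt-10, reported as an epidermal signal that slows reproductive ageing, had 4, 14 and 42 counts in prg-1 mutants and 33, 26 and 3 counts in wild type, so that its highest library was the third in the mutant and its lowest the third in wild type. No direction can be read from that (-0.00 ± 0.87). wrt-3 had 11, 12 and 8 counts in prg-1 mutants and 5, 13 and 12 counts in wild type (0.04 ± 0.44), with the pseudogene overlap given above.

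Of the 34 tested members, 32 had a log2 fold change above 0, with a median of 0.63, where 51.8% of all tested genes were above 0 and their median was 0.02. The median was 0.76 for the 7 grd genes, 0.56 for the 18 ptr genes and 0.45 for the 5 wrt genes tested. Since 3 of the members passed the filter only through the mutant, the same was counted without a filter: 70 of the 83 genes had the higher mean in prg-1 mutants, 11 had it in wild type and 2 had no count, where 61.6% of the protein-coding genes with a count had the higher mean in the mutant. In that count, 49 of the 83 genes were too sparse for the test, and some owed the higher mean to prg-1 replicate 2. Among them was grd-7, with 1, 11 and 2 counts in prg-1 mutants and 1, 2 and 2 counts in wild type. Another was grl-6, with 1, 10 and 0 counts in prg-1 mutants and 0, 4 and 1 counts in wild type. The genotypes did not overlap for 11 of the 34 tested members, against 25% of all tested genes. Among these 11 were wrt-1, ptr-4 and qua-1, which passed the filter only through the mutant, so that the filter favoured their separation. Of the warthog genes all 10 had the higher mean in prg-1 mutants, but not all by a readable margin. The means were almost equal for wrt-10 (2.45 against 2.42 CPM) and wrt-3 (1.24 against 1.21 CPM). wrt-7 had only 0, 3 and 3 counts in prg-1 mutants and 2, 2 and 1 counts in wild type. wrt-9 owed its higher mean to replicate 2, with 1, 13 and 1 counts in prg-1 mutants and 5, 2 and 0 counts in wild type. For wrt-8 replicate 2 was by far the highest, with 2, 13 and 2 counts in prg-1 mutants and 0, 0 and 1 counts in wild type. wrt-6, with 12, 18 and 5 counts in prg-1 mutants and 0, 0 and 1 counts in wild type, and wrt-4, with 13, 22 and 3 counts in prg-1 mutants and 1, 2 and 0 counts in wild type, were too sparse for the test. They are named here after their values were seen. Against the floor of 3 counts per library, the mean of wrt-6 was 3.77-fold higher in prg-1 mutants.

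Summed over all 83 genes but ptr-2, the level was 288 ± 56.3 CPM in rpb-9 mutants and 211 ± 7.70 CPM in wild type (SD, n = 3 each), and 312 ± 88.9 CPM in prg-1 mutants and 190 ± 26.1 CPM in their wild type. In both mutants the spread between libraries was wider than in wild type. The grd genes alone summed to 80.2 ± 8.25 CPM in rpb-9 mutants and 51.1 ± 0.57 CPM in wild type, and to 112 ± 53.1 CPM in prg-1 mutants and 62.3 ± 12 CPM in their wild type. In replicates 1 and 2 the grd sums were 148 and 136 CPM in prg-1 mutants and 67.8 and 70.5 CPM in wild type, while in replicate 3 they were 50.9 CPM in the mutant and 48.5 CPM in wild type. The grl genes summed to 24.2 ± 1.73 CPM in rpb-9 mutants and 28.3 ± 4.90 CPM in wild type, and to 24.1 ± 13.3 CPM in prg-1 mutants and 9.57 ± 1.97 CPM in their wild type. With ptr-2 included, the order in the rpb-9 experiment turned: all 83 genes summed to 520 ± 81.5 CPM in rpb-9 mutants and 642 ± 18.9 CPM in wild type, and to 435 ± 58.2 CPM in prg-1 mutants and 330 ± 8.02 CPM in their wild type.

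**Figure D4:**
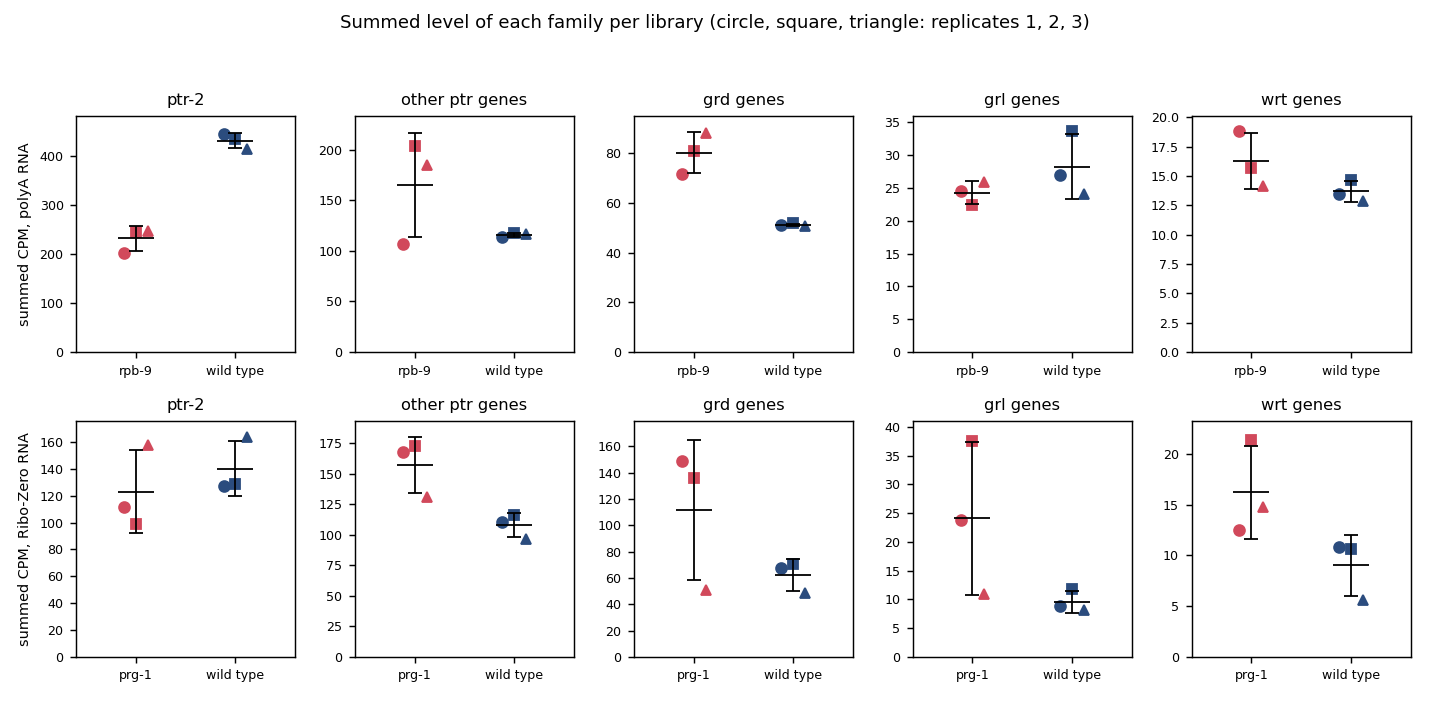
Summed CPM (TMM scaled) of ptr-2, of the other ptr genes and of the grd, grl and wrt genes in each library, in polyA RNA (top, rpb-9 mutants left, wild type right) and Ribo-Zero RNA (bottom, prg-1 mutants left, wild type right), with mean and SD (n = 3). In polyA RNA the grd sum lies between 71.6 and 88.1 CPM in rpb-9 mutants, above all wild-type libraries, and ptr-2 lies below them in every mutant library.

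Whether the mutants differed from each other was tested in 1 model of all 12 libraries, as the rpb-9 effect minus the prg-1 effect. The wild-type libraries of the comparisons are separate, but the kind of library differs between them, so genotype and library kind cannot be told apart in this contrast. wrt-1 was the 1 member of 50 under an adjusted p of 0.01, where 113 of 14938 genes (0.756%) were. Its difference was -4.54 ± 0.69 on the log2 scale (edgeR adjusted p = 0.0028): every rpb-9 library was below every wild-type library of its set, and every prg-1 library above every wild-type library of its own. The Ribo-Zero side rests on 10, 23 and 14 counts in prg-1 mutants and 2, 3 and 0 in wild type. The change was not called there (edgeR adjusted p = 0.085). The wild types of the sets were unlike for wrt-1, with means of 1.58 TPM in polyA and 0.16 TPM in Ribo-Zero RNA. Its means in the mutants were 0.68 TPM for rpb-9 in polyA RNA and 1.83 TPM for prg-1 in Ribo-Zero RNA. Leaving out a library gave values between -4.05 and -5.11, and the adjusted p was above 0.01 without polyA wild type replicate 1 (0.0103), polyA wild type replicate 2 (0.0107), polyA rpb-9 replicate 3 (0.0122) or Ribo-Zero wild type replicate 1 (0.0113). Next came grl-21, with a difference of -5.99 (edgeR adjusted p = 0.0129) that rests on 6, 5 and 2 counts in prg-1 mutants and 0, 0 and 1 counts in wild type on the Ribo-Zero side, and ptr-4, with -3.19 (edgeR adjusted p = 0.031). In polyA RNA, ptr-4 was at 0.84, 1.81 and 1.09 CPM in rpb-9 mutants and 1.00, 1.90 and 1.37 CPM in wild type, and the genotypes overlapped. Wild-type means were also unlike between the sets for grl-21 (1.95 TPM in polyA and 0.096 TPM in Ribo-Zero RNA) and ptr-4 (0.59 and 0.14 TPM).

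Of the 34 genes tested in both experiments, 24 had a log2 fold change above 0 in both mutants and 8 were below 0 in rpb-9 mutants and above 0 in prg-1 mutants. One was below 0 in both (ptr-2) and 1 above 0 in rpb-9 and below 0 in prg-1 mutants (wrt-10). Of the genes that rose in rpb-9 mutants, grd-1 had 21, 25 and 7 counts in prg-1 mutants and 8, 12 and 3 counts in wild type (1.21 ± 0.57, edgeR adjusted p = 0.30). ptr-20 had 62, 68 and 46 counts in prg-1 mutants and 51, 52 and 34 counts in wild type (0.35 ± 0.23, edgeR adjusted p = 0.43), and its libraries overlapped.

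**Figure D5:**
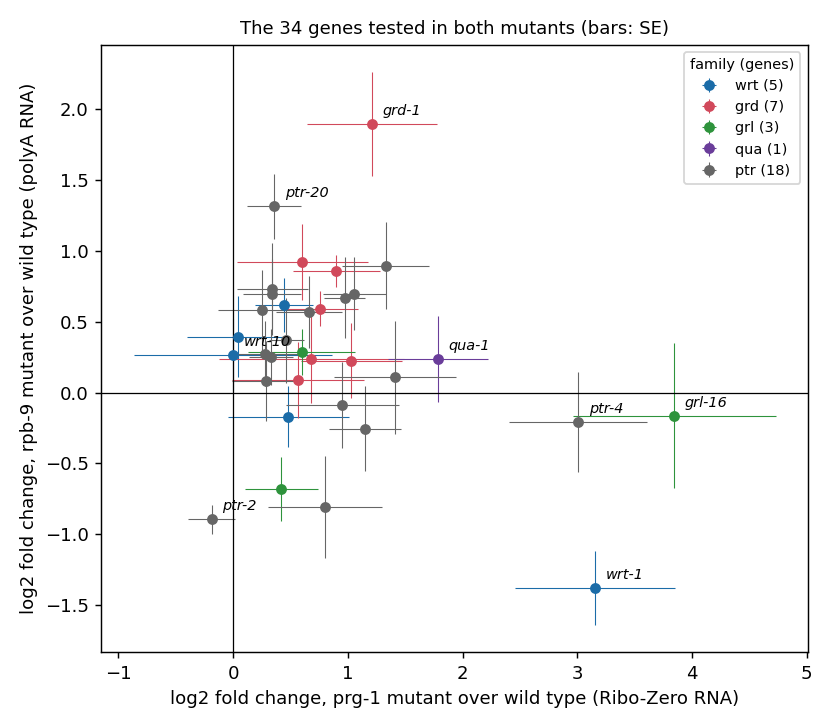
Log2 fold change in rpb-9 mutants (vertical, polyA RNA) against that in prg-1 mutants (horizontal, Ribo-Zero RNA) of the 34 genes tested in both, with SE. wrt-1 is alone at the lower right (-1.38 and 3.15), grl-16 and ptr-4 are at the right near 0 in rpb-9 mutants, and 24 genes are above 0 on both axes.

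The single hog gene, hog-1 (chrX:5851953-5854263), stayed close to the count minimum, with 11, 13 and 18 counts in rpb-9 mutants and 5, 6 and 8 counts in wild type (0.72 ± 0.34, edgeR adjusted p = 0.11), and passed the filter only through the mutant. In the Ribo-Zero libraries it had 2, 4 and 4 counts in prg-1 mutants and 2, 2 and 2 counts in wild type, too few to test. Among the glial and excretory members, grl-2, a marker of excretory pore and duct cells, had 10, 10 and 15 counts in rpb-9 mutants and 4, 0 and 6 counts in wild type (1.35 ± 0.65, edgeR adjusted p = 0.11), and passed the filter only through the mutant. wrt-5, which is essential for epidermal development, was at 11.6, 8.38 and 8.03 CPM in rpb-9 mutants and 5.62, 5.75 and 6.88 CPM in wild type (0.61 ± 0.19, edgeR adjusted p = 0.027). Its genotypes did not overlap. The ground-like gene grl-10, which shares 18 exon bases with the ribosomal protein gene rpl-39, was at 9.34, 6.70 and 9.37 CPM in rpb-9 mutants and 11.4, 17.9 and 11.4 CPM in wild type (-0.68 ± 0.23, edgeR adjusted p = 0.035).

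The remaining named members did not pass the test in either mutant. In rpb-9 mutants, grd-10 (0.24 ± 0.31), grd-13 (0.09 ± 0.27), grd-14 (0.23 ± 0.27), grl-4 (0.29 ± 0.16) and ptr-8 (0.37 ± 0.30) overlapped wild type, with edgeR adjusted p between 0.17 and 0.80. In prg-1 mutants, grd-14 was at 5.28, 7.70 and 2.24 CPM, against 2.80, 2.52 and 2.10 CPM in wild type (1.03 ± 0.44, edgeR adjusted p = 0.27). ptr-8 was at 12.1, 13.3 and 13.8 CPM in prg-1 mutants and 9.18, 9.08 and 10.2 CPM in wild type, a small and even difference without overlap (0.46 ± 0.15, edgeR adjusted p = 0.18). ptr-24 was at 30.0, 30.4 and 16.1 CPM in prg-1 mutants and 22.9, 19.7 and 17.9 CPM in wild type, and ptr-21 at 45.0, 32.5 and 28.0 CPM in prg-1 mutants and 25.9, 31.7 and 26.3 CPM in wild type. Both overlapped.

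The rest of the pathway was read from a list of Patched and Hedgehog-linked genes outside the naming rule, of which 10 were tested in polyA RNA. None was called in rpb-9 mutants (median log2 fold change 0.13, 6 above and 4 below 0). Under an adjusted p of 0.01, but within the threshold on the fold, were ptc-1 and scp-1. ptc-1, the Patched gene needed for cytokinesis in the germline, was at 463, 758 and 682 CPM in rpb-9 mutants and 1145, 1098 and 1062 CPM in wild type (-0.80 ± 0.17, edgeR adjusted p = 0.0061). Like ptr-2 it ran beside the oocyte list. scp-1 was at 56.4, 70.4 and 72.2 CPM in rpb-9 mutants and 97.6, 95.5 and 90.3 CPM in wild type (-0.51 ± 0.11, edgeR adjusted p = 0.0061). In prg-1 mutants none of 7 was called (median -0.02), and ptc-1 was at 389, 346 and 520 CPM in the mutant and 485, 442 and 568 CPM in wild type. Of 29 tested moulting genes, 21 were above and 8 below 0 in rpb-9 mutants (median 0.27). Among them 4 were called up, close to the background share of 13.8%, and none was called down. The 4 were the nuclear receptor gene nhr-25 (1.22 ± 0.28, edgeR adjusted p = 0.0074), mlt-2 (1.40 ± 0.27, 0.0039), mlt-3 (1.18 ± 0.19, 0.0020) and peb-1 (1.04 ± 0.25, 0.0098). Those below 0 included mlt-9 (-0.97 ± 0.35, edgeR adjusted p = 0.047) and lin-42 (-0.79 ± 0.21, 0.014). With the replicate block, nhr-25 and peb-1 were not called (edgeR adjusted p = 0.0115 and 0.0124). The driver of the cycle, nhr-23, was at 35.7, 47.1 and 48.4 CPM in rpb-9 mutants and 75.9, 77.9 and 71.8 CPM in wild type (-0.78 ± 0.13, edgeR adjusted p = 0.0019). In prg-1 mutants none of 25 moulting genes was called, 20 were above 0 and the median was 0.48. Among epidermal and seam identity genes, 1 of 8 was called in rpb-9 mutants, where 15.3% of all tested genes were: egl-18, a seam cell GATA factor, at 9.998, 17.4 and 15.5 CPM in rpb-9 mutants and 27.7, 30.0 and 28.6 CPM in wild type (-1.01 ± 0.20, edgeR adjusted p = 0.0041). None of 6 was called in prg-1 mutants.

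Markers of other cells moved in the same comparisons, and their part in the levels above was not tested. In rpb-9 mutants the median log2 fold change was 1.95 over 15 tested sperm genes. Of these, 9 were called up and 2 down, against backgrounds of 13.8% and 1.49%. The sperm list held 2 entries named msd-1, both tested in each experiment and both called up in rpb-9 mutants. The median was 0.52 over 4 glial genes, 0.40 over 5 embryonic genes and 0.13 over 5 adult cuticle collagens. Summed levels did not separate for sperm, at 44 to 45.6 CPM in rpb-9 mutants and 40.8 to 48.7 CPM in wild type. In prg-1 mutants the medians were 0.99 over 14 sperm genes, 0.93 over 4 glial genes, -0.67 over 5 embryonic genes, 1.67 over 4 adult cuticle collagens and -0.36 over 18 oocyte genes, of which 0 were above 0. Sperm genes summed to 146, 149 and 26.9 CPM in prg-1 mutants and to 74.9, 62 and 37 CPM in wild type, with the third library lowest in both.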

How the data were processed

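The members and the gene lists were chosen with earlier results of these data known, so neither is independent of them. The authors aligned polyA and Ribo-Zero reads with STAR v2.5.4b to ce11 and the reporter sequence, allowing no introns, which leaves out reads across exon junctions, and counted exons with featureCounts v1.6. The values they deposited are expected counts per gene, in which multi-mapped reads are split into fractions, with no normalization. Lanes of a Ribo-Zero library share 1 column. Another 24 columns have names that no label links to a genotype and were not used here, and fold changes or p-values of the authors were not used either.

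Expected counts were rounded and fitted with edgeR 4.0.16 in R 4.3.3 by genotype, with TMM normalization and the quasi-likelihood F test. The whole table was tested where a gene had 10 or more counts in 3 or more libraries. Calls needed a Benjamini-Hochberg adjusted p under 0.01 and a log2 fold change over 1 in size, the thresholds of the study's methods. Standard errors are the log2 fold change over the square root of the F statistic. CPM were scaled by TMM factors, and TPM used the exon lengths in the tables, without ribosomal RNA genes. Folds against a floor set each wild-type library to 3 counts and took the mutant mean as observed, so they do not cover all counting error or other variation. The scripts were tested on simulated counts.

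The replicate numbers come from the column names, which do not say what libraries of 1 number share. In the Ribo-Zero set the deviations of same-numbered libraries correlated at 0.17, 0.35 and 0.44, against -0.49 to 0.32 for other pairs. They were taken as paired in the replicate block, not in the main fit. Replicates 1 and 2 were hardly told apart: prg-1 replicate 2 correlated at 0.32 with wild type replicate 1, and prg-1 replicate 1 at 0.14 with wild type replicate 2. In the polyA set same-numbered libraries correlated at 0.08, 0.08 and -0.05, and were not taken as paired. Named members are those called, hog-1 and qua-1, the 10 of highest mean TPM in each experiment, and in each the 3 highest and 3 lowest log2 fold changes. Alternatives were DESeq2 1.42.0, its size factors (RLE), library size alone, other filters, no ribosomal RNA genes, the replicate block, a threshold of 0.05 on the adjusted p alone, each library left out, and, chosen after seeing the data, a mean of at least 10 counts. Gene positions are from Ensembl's annotation of WBcel235 and figures were drawn with matplotlib 3.10.9.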

Additional observations from a re-analysis of the deposited data

Results flagged for a closer look

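One gene, wrt-1, differed between the mutants in a test of the difference itself. Its log2 fold change was -1.38 in rpb-9 mutants (edgeR adjusted p = 0.0035) and 3.15 in prg-1 mutants (edgeR adjusted p = 0.085, not called), each against its own wild type. The difference was -4.54 ± 0.69 (edgeR adjusted p = 0.0028). In the test of prg-1 mutants alone, wrt-1 passed the filter only through the mutant. Over the alternatives, libraries left out included, the adjusted p lay between 6.43e-08 and 0.0122. For wrt-1 the wild-type mean was 1.58 TPM in polyA and 0.16 TPM in Ribo-Zero RNA, and the prg-1 mean was 1.83 TPM. The kind of library changes with the mutant, and its part was not tested.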

How the results depend on the processing

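In rpb-9 mutants the number of members called was 5, 6 with DESeq2, 5 with the replicate block, 8 with library size alone, 15 at an adjusted p of 0.05 with no fold threshold, and between 2 and 6 with 1 library left out. The block changed no call of a named member there, but the moulting genes nhr-25 and peb-1 were no longer called with it (edgeR adjusted p = 0.0115 and 0.0124). Of all genes, 2179 were called, 7251 at the adjusted p of 0.05 alone and between 1132 and 2081 with 1 library left out. Scaling by library size alone moved the median of the members to 0.52, and that of all genes to 0.40. Directions turned for members near 0: grd-13 was at -0.0037 with DESeq2 and -0.0022 with RLE size factors, and grl-16 and ptr-4 at 0.12 and 0.039 with library size alone. With 1 library left out, grd-13 ranged from -0.047 to 0.36, grl-16 from -0.66 to 0.26 and ptr-4 from -0.52 to 0.085. In prg-1 mutants 0 members were called with the replicate block, 2 with DESeq2, 5 without a filter on low counts and between 0 and 4 with 1 library left out, the 4 without prg-1 replicate 3. All genes called were 14, 335 with DESeq2, 23 with library size alone, 724 without a filter, 137 at an adjusted p of 0.05 alone, 21 with the block and between 0 and 547 with 1 library left out. There wrt-10 turned to 0.0090 with DESeq2, 0.23 with library size alone, 0.0019 with a mean of at least 10 counts and 0.0018 without ribosomal RNA genes, and ranged from -1.18 to 0.62 with 1 library left out. wrt-3 turned to -0.046 without a filter and ranged from -0.26 to 0.32. For the difference between mutants, 1 member was under 0.01, 2 with the block or library size alone, 4 with DESeq2, 7 without a filter and between 0 and 3 with 1 library left out. The cause of these shifts was not tested. Of the values of named members under the alternatives, 638 kept direction and side of the threshold, 22 crossed it inwards, 14 outwards and 22 turned. Depth limits the sparse members: 33 were not tested in polyA and 49 in Ribo-Zero RNA, and the absence of calls in prg-1 mutants does not show that levels were equal.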
